A study of Homo sapiens with 12 samples.

Results

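The genes described here import cystine, build, recycle and break down glutathione, and detoxify lipid peroxides, in SW480 cells, a human colon adenocarcinoma line. They were chosen by name: SLC7A11, GCLC, GCLM, GSS, GSR, GPX4, CHAC1, AIFM2, DHODH and NFE2L2. All 10 had a row in both deposited tables, which share 12203 annotated genes. Poly(A) RNA was sequenced in 4 groups of stably transfected SW480 cells with 3 libraries each: a line with a short hairpin RNA against GPD1L (shGPD1L), its control-hairpin line (shNC), a line overexpressing GPD1L (OE) and its empty-vector line (Vector). GPD1L encodes glycerol-3-phosphate dehydrogenase 1-like, and the series title names it as a tumor suppressor that acts through the transcription factor ATF3 and ferroptosis. Each change of GPD1L was made in a single line against a single control line, so what a hairpin does beside its target, or what 2 lines differ in by chance, cannot be told apart from the GPD1L level.

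Ferroptosis is a form of cell death driven by iron-dependent peroxidation of membrane lipids. The antiporter system xc-, whose transport subunit is encoded by SLC7A11, exchanges glutamate for cystine, which is reduced to cysteine and built into glutathione, and GPX4 uses glutathione to reduce lipid hydroperoxides. AIFM2 (the protein is also called FSP1) and DHODH act beside GPX4 by keeping coenzyme Q reduced, and NFE2L2 encodes NRF2, the transcription factor that induces many of these genes under oxidative or electrophilic stress. In colorectal cancer cells SLC7A11 and GPX4 are among the best studied targets for inducing this death.

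Promoter sequence was examined because SLC7A11, GCLC, GCLM and CHAC1 are textbook targets of NRF2 or of the stress factor ATF4. In the RefSeq promoter table (GRCh38.p14, 250 bases before to 50 bases after each start), 7 of the 10 genes were found, with 10 promoters in all. SLC7A11, GSS and GSR had no entry, so their promoters were not searched. Sites outside this window were not searched for any gene. The core of the antioxidant response element that NRF2 binds, TGACNNNGC on either strand, occurred in the promoters of GCLM and AIFM2 and in 13.3% of the 35116 promoters in the table. The C/EBP-ATF response element, TGATGNAA on either strand, occurred in the promoter of CHAC1 and in 3.62% of all promoters. The cyclic AMP response element TGACGTCA, which is its own reverse complement, occurred in 0 of these 7 genes and in 1.85% of all promoters. The 3 matches are shown 5′ to 3′ on the strand of the gene, with the match, which reads on the other strand in each case, in capitals:
GCLM (chr1:93909445-93909474, minus strand, match 34 to 26 bases before the start): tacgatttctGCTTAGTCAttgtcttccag
AIFM2 (chr10:70132828-70132857, minus strand, match 22 to 14 bases before the start): cagcacgagtGCTGAGTCAcgccccgcccg
CHAC1 (chr15:40953251-40953280, plus strand, match 209 to 202 bases before the start): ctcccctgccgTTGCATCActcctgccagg
The AIFM2 match also holds an AP-1 site (TGACTCA, 4.95% of all promoters), and the AIFM2 and CHAC1 windows lie inside longer transcripts of GENCODE 29. The GCLM window reaches into the GENCODE 29 gene, whose 5′ end lies at 93909456. Distances to the start are to the RefSeq start. A match describes the letters and says nothing of binding.

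The deposited values are FPKM, a level that corrects the fragments of a gene for its length and for the size of the library, and they summed to between 421714 and 444794 per library. The number of reads is unknown. The labels do not tell whether the 3 libraries of a group are 3 cultures, and the p-values then measure no more than the spread between these libraries, which may be technical. Differences were tested on log2(FPKM + 1), which understates the change of low genes, with limma over all genes averaging 1 FPKM or more, and a gene was called at a Benjamini-Hochberg adjusted p under 0.05. GPD1L averaged 1.68 ± 0.494 FPKM in shGPD1L and 8.60 ± 0.550 FPKM in shNC, and 22.4 ± 0.366 FPKM in OE and 10.7 ± 0.449 FPKM in Vector (SD, n = 3 each), and was called in the direction of each label (adjusted p = 0.00675 and 4.74e-05). One knockdown library, shGPD1L replicate 3, stood apart on the first principal component at 29.1, against -12.1 to 0.319 for the other 5 libraries of its table, and results that rest on it are given with and without it. Of 16 markers of other cell types 5 were listed (CD14, CD68, COL1A1, PDGFRB and ACTA2), summing to 27.3 to 44.7 FPKM in shGPD1L, 38.3 to 43.8 in shNC, 28.5 to 29.6 in OE and 28.8 to 30.7 in Vector. CD68 and ACTA2 carried these sums, while CD14 and PDGFRB, 2 of the 4 tested, were lower in OE than in Vector by limma (log2 differences -0.64 and -0.41, adjusted p = 0.00803 and 0.0199). The 10 epithelial and colon markers, EPCAM, CDX2 and the keratins KRT8 and KRT18 among them, summed to 4239 to 4504 FPKM in shGPD1L and 5093 to 5452 in shNC over the 9 listed there, and to 4188 to 4321 in OE and 3856 to 3962 in Vector over all 10. KRT8, KRT18 and KRT19 carried these sums, which in OE ran against most of the list: the 3 keratins were called higher and the other 6 tested genes, EPCAM (-0.21) and CDX2 (-0.59) among them, lower, with a median log2 change of -0.31.

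The order of the 10 transcripts was alike at its ends in all 12 libraries, with GPX4 highest and DHODH lowest in each. GPX4 (ENSG00000167468, chromosome 19, 1103926 to 1106791, plus strand, as all positions here from GENCODE 29 on GRCh38), the selenoenzyme that reduces phospholipid hydroperoxides, had group means from 272 ± 14.7 FPKM in shGPD1L down to 238 ± 9.35 FPKM in shNC (SD, n = 3 each). DHODH (ENSG00000102967, chromosome 16, 72008588 to 72027664, plus strand), the mitochondrial enzyme of pyrimidine synthesis, had group means between 3.00 ± 0.132 FPKM in OE and 4.13 ± 0.344 FPKM in shGPD1L. GSR, at 62.5 to 107 FPKM, came second in every shGPD1L, shNC and Vector library and after GCLC in the OE libraries. SLC7A11 stood at rank 9 in 5 of the 6 hairpin libraries, at 15.2 to 20.7 FPKM over all 6, and at ranks 5 to 7 in the OE and Vector libraries, at 43.5 to 68.4 FPKM.

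**Figure D1:**
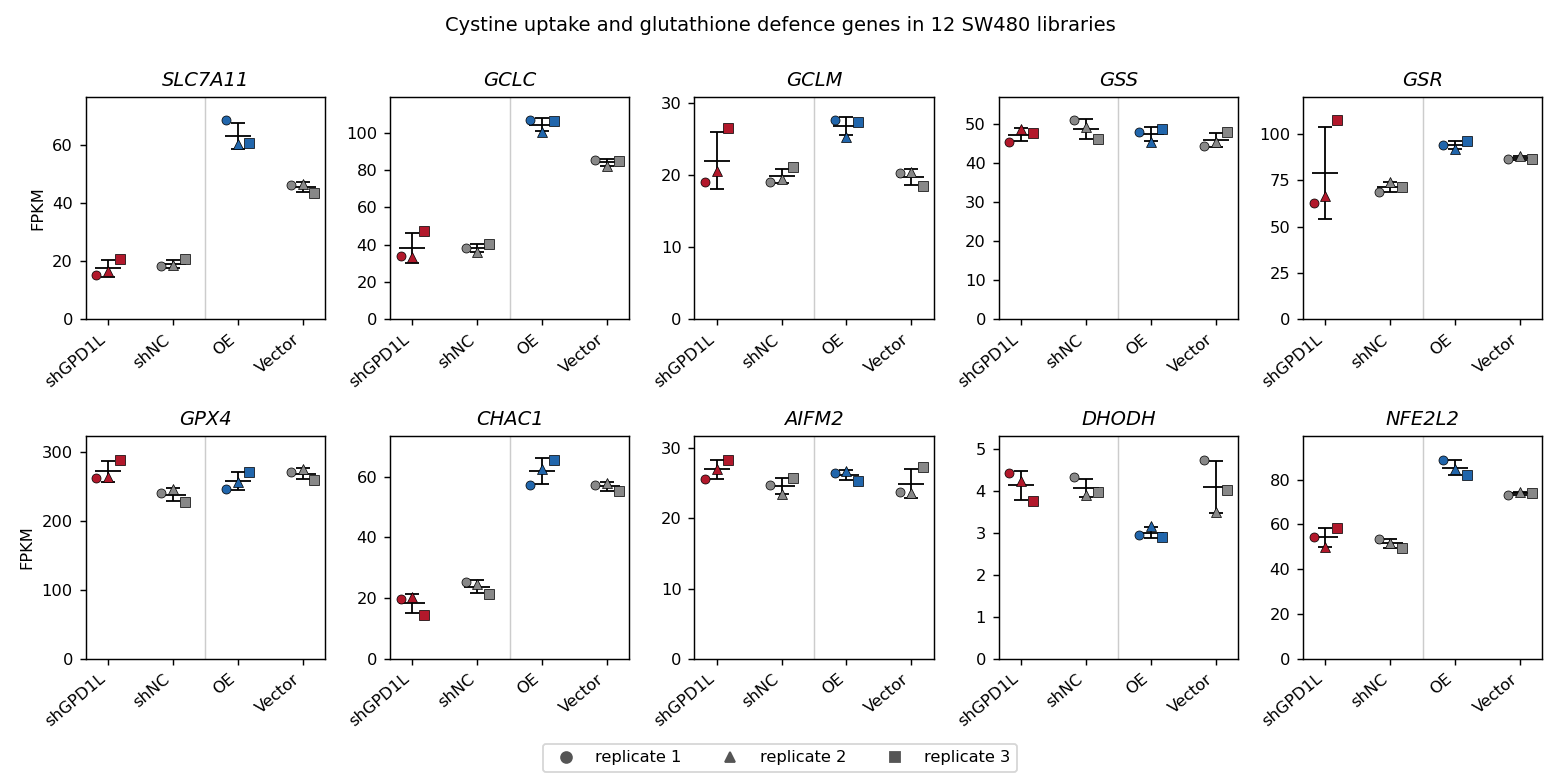
FPKM (vertical axis, from 0, own scale per gene) of the 10 genes in each library of shGPD1L, shNC, OE and Vector (horizontal axis); symbols mark replicates 1 to 3, and bars give the mean and SD of 3 libraries. SLC7A11, GCLC, GCLM and NFE2L2 lie above every Vector library in every OE library, DHODH lies below, and shGPD1L replicate 3 is the highest knockdown library for GSR, at 107 FPKM.

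The first comparison asked how these genes stand when GPD1L is raised. The transcripts of SLC7A11, GCLC, GCLM and NFE2L2 were higher in OE than in Vector and that of DHODH was lower, so that of the 10 genes 4 were called higher and 1 lower. Over all 12208 genes tested, 22.4% were called, 12.2% higher and 10.3% lower. With library totals set equal that split was 2441 higher to 977 lower, against 1484 to 1256. The median log2 change was 0.11 for the 10 genes and 0.024 for all genes. The groups did not overlap for 6 of the 10 genes, against 41.8% of all genes tested. The 10 genes were chosen with earlier results of these data known, so these counts do not test them as a group.

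SLC7A11 (ENSG00000151012, chromosome 4, 138164097 to 138242349, minus strand) was listed at 68.4, 60.3 and 60.8 FPKM in OE and at 46.2, 46.6 and 43.5 FPKM in Vector. Every OE library lay above every Vector library, and the mean was 1.39 times that of Vector. The difference was 0.47 on the log2 scale (SE 0.059, 95% interval 0.33 to 0.60, limma adjusted p = 0.00186), and 1.25% of all genes tested had a larger rise. The partner subunit gene SLC3A2, which encodes the heavy chain that carries the transporter to the membrane, averaged 206 ± 10.4 FPKM in OE and 193 ± 11.1 FPKM in Vector (SD, n = 3 each) and was not called (log2 difference 0.093, limma adjusted p = 0.258).

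GCLC and GCLM encode the catalytic and the modifier subunit of glutamate-cysteine ligase, the rate-limiting enzyme of glutathione synthesis. GCLC (ENSG00000001084, chromosome 6, 53497341 to 53616970, minus strand) was listed at 107, 100.2 and 106 FPKM in OE and at 85.3, 81.9 and 85.0 FPKM in Vector. GCLM (ENSG00000023909, chromosome 1, 93885205 to 93909456, minus strand) was listed at 27.6, 25.3 and 27.4 FPKM in OE and at 20.3, 20.4 and 18.5 FPKM in Vector. The groups were apart for both subunits, with log2 differences of 0.31 for GCLC (SE 0.043, limma adjusted p = 0.00267) and 0.42 for GCLM (SE 0.059, limma adjusted p = 0.00266). GSS (ENSG00000100983, chromosome 20, 34928433 to 34956027, minus strand), which adds glycine in the second step, was at 48.2, 45.4 and 48.8 FPKM in OE and at 44.5, 45.4 and 48.1 FPKM in Vector. Its groups overlapped, and the interval of the log2 difference ran from -0.070 to 0.16 (adjusted p = 0.558).

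GSR (ENSG00000104687, chromosome 8, 30678061 to 30727999, minus strand), glutathione reductase, returns oxidised glutathione to its reduced form with NADPH. It was listed at 94.3, 92.0 and 96.0 FPKM in OE and at 86.7, 88.3 and 86.3 FPKM in Vector. The groups did not overlap, but the log2 difference of 0.11 (SE 0.039) missed the threshold in limma (adjusted p = 0.0726) and passed it with library totals set equal (0.16, adjusted p = 0.0173). CHAC1 (ENSG00000128965, chromosome 15, 40952962 to 40956519, plus strand), a cytosolic enzyme that cleaves glutathione and is induced through ATF4, was at 57.4, 62.7 and 65.6 FPKM in OE and at 57.4, 58.0 and 55.2 FPKM in Vector. The groups overlapped through OE replicate 1, and CHAC1 was not called (log2 difference 0.12, 95% interval -0.0087 to 0.25, limma adjusted p = 0.157).

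Of the lipid peroxide defence genes, GPX4 was at 246, 257 and 271 FPKM in OE and at 271, 276 and 259.6 FPKM in Vector. AIFM2 (ENSG00000042286, chromosome 10, 70098223 to 70132934, minus strand) was at 26.4, 26.8 and 25.4 FPKM in OE and at 23.8, 23.7 and 27.3 FPKM in Vector. Both genes overlapped between the groups and neither was called, with 95% intervals of -0.17 to 0.048 for GPX4 and -0.074 to 0.22 for AIFM2 on the log2 scale. AIFM2 overlaps the listed gene H2AFY2 on the other strand over 14058 bases, and NFE2L2 overlaps AGPS over 54 bases. Whether the libraries kept the strand is not given, so it is unknown whether reads of such overlaps were separated. DHODH was lower in 3 of 3 OE libraries, at 2.94, 3.15 and 2.90 FPKM, against 4.73, 3.50 and 4.01 FPKM in Vector. The groups were apart, with a log2 difference of -0.34 (SE 0.099, limma adjusted p = 0.0411). The call held in 7 of 14 alternatives. It ended, among others, with library totals set equal (adjusted p = 0.0541) and without Vector replicate 1 or 3 or OE replicate 1, 2 or 3 (adjusted p = 0.113, 0.0838, 0.0964, 0.0718 and 0.0973 in that order, all by limma).

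NFE2L2 (ENSG00000116044, chromosome 2, 177227595 to 177392697, minus strand) was at 88.9, 85.0 and 82.3 FPKM in OE and at 73.4, 74.5 and 74.0 FPKM in Vector. The groups did not overlap, and the log2 difference was 0.20 (SE 0.043, limma adjusted p = 0.0128), a ratio of means of 1.15. KEAP1, the adaptor that hands NRF2 protein over for degradation, averaged 38.5 ± 3.50 FPKM in OE and 36.5 ± 2.40 FPKM in Vector (SD, n = 3 each) and was not called (adjusted p = 0.503). The calls of SLC7A11, GCLC, GCLM and NFE2L2 held in each of 15 alternative settings, with adjusted p-values of at most 0.0473. All 9 tested epithelial and colon markers were also called in this comparison, in both directions, and their part in these results was not tested.

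The second comparison asked how the genes stand when GPD1L is lowered. None of the 10 was called by limma, in either direction, and 2 of them, CHAC1 and GPX4, had an unadjusted p under 0.05, as did 16.3% of all genes tested. Over all 12156 genes tested 0.592% were called, and the median log2 change was 0.044 for the 10 genes and -0.036 for all genes. The groups did not overlap for CHAC1 and GPX4, 2 of the 10 genes, against 24.7% of all genes tested (9.54% higher and 15.1% lower in shGPD1L). The count called was also 0 of 10 without shGPD1L replicate 3, against 5.01% of all genes (1.8% higher and 3.21% lower).

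CHAC1 was listed at 19.8, 20.5 and 14.6 FPKM in shGPD1L and at 25.3, 24.5 and 21.3 FPKM in shNC. Every knockdown library lay below every control library, with replicate 3 lowest, and the log2 difference was -0.37 (SE 0.14, 95% interval -0.68 to -0.058, limma adjusted p = 0.244). Without shGPD1L replicate 3 it was -0.22 (adjusted p = 0.169). GPX4 was listed at 263, 264 and 289 FPKM in shGPD1L and at 240.4, 247 and 228 FPKM in shNC. Every knockdown library lay above every control library, with a log2 difference of 0.19 (SE 0.081, 95% interval 0.0016 to 0.38, limma adjusted p = 0.304).

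SLC7A11 was at 15.2, 16.7 and 20.7 FPKM in shGPD1L and at 18.2, 18.6 and 20.7 FPKM in shNC. Replicates 1 and 2 lay below the controls and replicate 3 within them, and the log2 difference was -0.13 (SE 0.12, 95% interval -0.41 to 0.14, limma adjusted p = 0.626). Without replicate 3 it was -0.25 (adjusted p = 0.122). SLC3A2 averaged 133 ± 28.0 FPKM in shGPD1L and 151 ± 13.6 FPKM in shNC (SD, n = 3 each; limma adjusted p = 0.571).

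In GCLC, GCLM and GSR shGPD1L replicate 3 lay above every shNC library while replicate 1 lay below. GCLC was at 34.0, 33.5 and 47.3 FPKM in shGPD1L and at 38.4, 35.9 and 40.6 FPKM in shNC. GCLM was at 19.0, 20.6 and 26.5 FPKM in shGPD1L and at 19.1, 19.5 and 21.0 FPKM in shNC. GSR was at 62.5, 66.7 and 107 FPKM in shGPD1L and at 68.8, 74.2 and 71.4 FPKM in shNC. The log2 differences of -0.017, 0.13 and 0.098 in that order of genes became -0.18, -0.0062 and -0.14 without replicate 3, and none was called in either case (limma adjusted p from 0.186 to 0.972). NFE2L2 was at 54.2, 50.0 and 58.6 FPKM in shGPD1L and at 53.6, 51.9 and 49.4 FPKM in shNC, again highest in replicate 3, with a log2 difference of 0.069 (limma adjusted p = 0.732), and of 0.013 without replicate 3 (adjusted p = 0.931).

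GSS was at 45.5, 48.7 and 47.8 FPKM in shGPD1L and at 51.0, 49.4 and 46.1 FPKM in shNC. AIFM2 was at 25.6, 27.1 and 28.4 FPKM in shGPD1L and at 24.7, 23.5 and 25.8 FPKM in shNC. DHODH was at 4.42, 4.22 and 3.75 FPKM in shGPD1L and at 4.31, 3.90 and 3.97 FPKM in shNC. The groups overlapped for these 3 genes, with 95% intervals on the log2 scale of -0.22 to 0.13 for GSS, -0.057 to 0.31 for AIFM2 and -0.20 to 0.24 for DHODH.

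**Figure D2:**
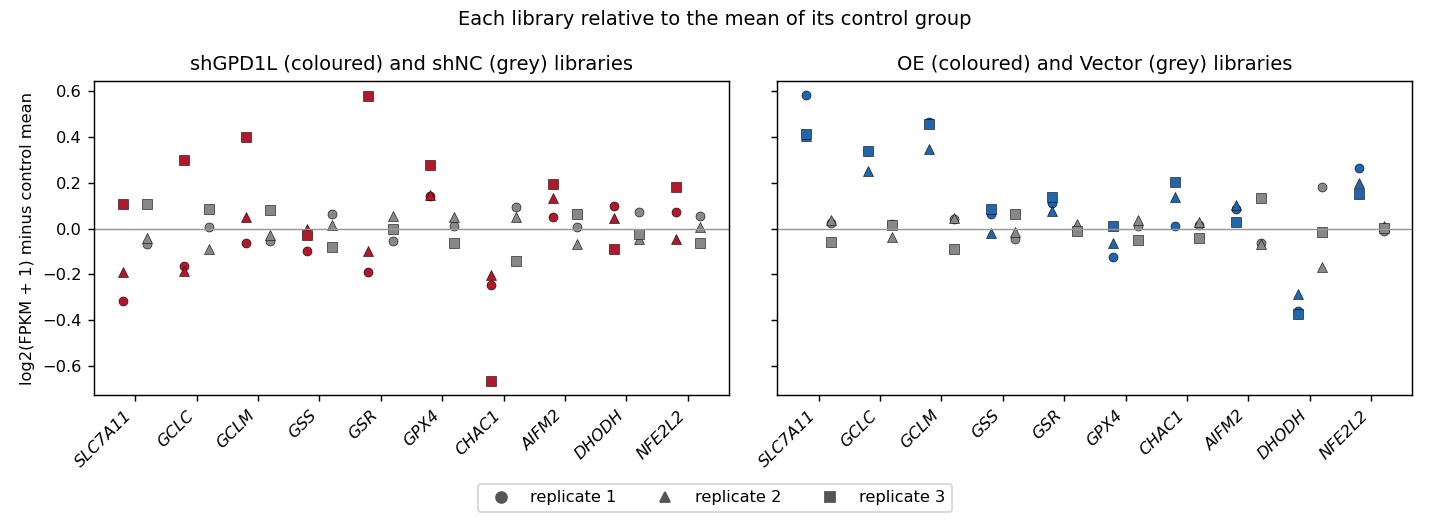
Each library's log2(FPKM + 1) minus the mean of its control group (vertical axis) for the 10 genes (horizontal axis), with shGPD1L left of shNC in the left panel and OE left of Vector in the right panel; symbols mark replicates. In the knockdown, replicate 3 (squares) lies apart from replicates 1 and 2 for GCLC, GCLM, GSR and CHAC1, while the OE libraries of SLC7A11, GCLC and GCLM lie together above 0.

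The third comparison subtracted the knockdown effect from the overexpression effect, in 1 fit over all 12 libraries. The control libraries differ between the comparisons. SLC7A11 was the 1 gene of the 10 called, against 14.1% of the 11208 genes tested (9.14% higher and 5% lower). That split was 1024 higher to 560 lower, and 651 to 751 with median-of-ratios scaling and 666 to 668 with quantile normalization. Its effects differed by 0.60 log2 units (SE 0.14, 95% interval 0.29 to 0.90, limma adjusted p = 0.0174), with 20 of 21 alternatives passing and adjusted p = 0.0506 without OE replicate 1. CHAC1 (0.49, 95% interval 0.15 to 0.83, limma adjusted p = 0.0558), GPX4 (-0.25, limma adjusted p = 0.082) and DHODH (-0.36, limma adjusted p = 0.0936) did not pass. CHAC1 passed with library totals set equal (adjusted p = 0.0364) and without shGPD1L replicate 2 (0.0295), and GPX4 with median-of-ratios scaling (0.0468).

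Without shGPD1L replicate 3, 6 of the 10 genes were called in this fit, against 22.9% of all genes (13.8% higher and 9.15% lower). SLC7A11 (0.72), GCLC (0.48, adjusted p = 0.00152), GCLM (0.43, adjusted p = 0.00764), CHAC1 (0.34, adjusted p = 0.0317) and GSR (0.25, adjusted p = 0.0198) were then higher in log2 units, and DHODH (-0.41, adjusted p = 0.0427) lower, all by limma. With all 12 libraries GCLC (0.33, adjusted p = 0.177), GCLM (0.29, adjusted p = 0.194) and GSR (0.012, adjusted p = 0.976) were not called. For these 3 genes and for DHODH the fit without that library was the 1 alternative that made the call. GSS, AIFM2 and NFE2L2 were not called with or without it. With all libraries the 95% interval of the difference was -0.099 to 0.27 for GSS, -0.27 to 0.16 for AIFM2 and -0.065 to 0.34 for NFE2L2.

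**Figure D3:**
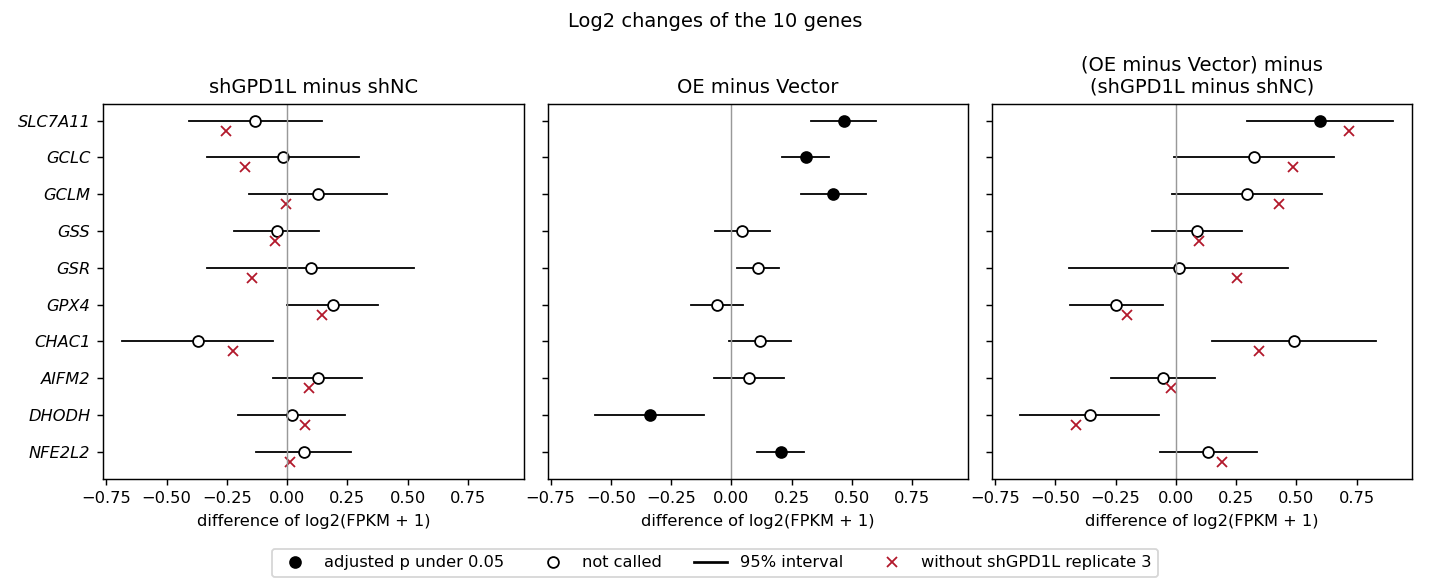
Differences of log2(FPKM + 1) (horizontal axis) with 95% intervals from limma for the 10 genes (rows), in the knockdown, the overexpression and the difference of the effects; filled circles are called at an adjusted p under 0.05 and crosses give the value without shGPD1L replicate 3. No circle is filled in the knockdown panel, 5 are in the overexpression panel, and SLC7A11 alone is in the panel of the difference.

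The control lines themselves differed in level for part of the pathway. Each table may carry its own normalization, and these levels are therefore set side by side with no test. Over 11220 genes the median difference of the mean levels, Vector minus shNC, was -0.013 on the log2(FPKM + 1) scale. CHAC1 averaged 56.9 ± 1.45 FPKM in Vector and 23.7 ± 2.11 FPKM in shNC, SLC7A11 45.4 ± 1.67 and 19.2 ± 1.36 FPKM, and GCLC 84.1 ± 1.88 and 38.3 ± 2.36 FPKM in the same order (SD, n = 3 each). The Vector mean was 2.40, 2.37 and 2.20 times the shNC mean for CHAC1, SLC7A11 and GCLC, and 0.748%, 0.793% and 1.08% of genes had a larger difference in size. NFE2L2 stood at 1.43 times the shNC mean in Vector and GSR at 1.22 times, and GPX4 at 1.13 times. GCLM, GSS, AIFM2 and DHODH had ratios between 0.942 and 1.01. On the log2 scale the gap between the control lines was larger in size than both the overexpression and the knockdown difference for SLC7A11, GCLC, CHAC1, NFE2L2, GSR and GSS, and not for the other genes.

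The ligase subunits stood in different ratios in the hairpin lines and in the OE and Vector lines. The ratio of GCLC to GCLM, each in FPKM and so per length, was 3.87, 3.96 and 3.88 in OE and 4.20, 4.02 and 4.60 in Vector. It was 1.79, 1.63 and 1.79 in shGPD1L and 2.01, 1.84 and 1.93 in shNC. The ratio was lower in every OE and every shGPD1L library than in its own controls, and shGPD1L replicate 3 did not stand apart in it. The ratio of SLC7A11 to SLC3A2 was 0.335, 0.308 and 0.281 in OE and 0.228, 0.240 and 0.240 in Vector. In the knockdown that ratio was 0.107, 0.107 and 0.204 in shGPD1L, with replicate 3 again apart, and 0.117, 0.137 and 0.129 in shNC.

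The rest of the pathway was read from 10 lists drawn up by function, with earlier results of these data known. In OE against Vector 12.2% of all genes tested were called higher and 10.3% lower. Counts near these shares say nothing particular of a list. The list of cystine and cysteine supply had 2 of 16 tested genes higher and 2 lower in OE. Not every gene in it supplies cysteine or a precursor, and GOT1, called higher, does not. GOT1, the cytosolic aspartate aminotransferase, averaged 66.0 ± 1.74 FPKM in OE and 49.1 ± 0.0733 FPKM in Vector, and the amino acid transporter SLC38A2 138 ± 7.76 FPKM in OE and 115 ± 3.68 FPKM in Vector (SD, n = 3 each). The falls were those of MAT2A, which makes the methyl donor S-adenosylmethionine (log2 difference -0.32), and AHCYL1, a relative of S-adenosylhomocysteine hydrolase (-0.19). Of 19 genes of glutathione turnover 1 was called, DPEP1, a membrane dipeptidase that splits the cysteinylglycine left by glutathione breakdown, at 11.5 ± 0.909 FPKM in OE and 32.4 ± 1.93 FPKM in Vector. DPEP1 and MAT2A also lay below every shNC library in every shGPD1L library, as did 15.1% of all genes tested. Their log2 differences there of -0.63 and -0.43 were not called (limma adjusted p = 0.0603 and 0.247).

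Glutathione peroxidases and transferases had 0 of 21 tested genes higher and 5 lower in OE, against 12.2% and 10.3% of all genes. Their median log2 change was -0.14, against 0.024 for all genes. With library totals set equal 1 was higher and 4 lower. GPX2, the gastrointestinal glutathione peroxidase, averaged 20.8 ± 1.01 FPKM in OE and 39.8 ± 2.26 FPKM in Vector (SD, n = 3 each; log2 difference -0.91, limma adjusted p = 0.000127). GSTT2B, which has a near-identical copy in GSTT2 with which reads may be shared, differed by -0.35. The thioredoxin, glutaredoxin and peroxiredoxin genes had 3 of 21 higher and 3 lower. The NRF2 targets SRXN1, sulfiredoxin, and TXNRD1, thioredoxin reductase, rose to 87.9 ± 1.21 FPKM and 298 ± 13.9 FPKM in OE, against 55.2 ± 0.572 FPKM and 242 ± 6.99 FPKM in Vector, while the methionine sulfoxide reductases MSRB2 and MSRB1 fell by 0.25 and 0.24 on the log2 scale.

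GSR consumes NADPH, and the list of NADPH supply had 2 of 17 genes higher and 3 lower in OE. Not every gene in it makes NADPH itself: TKT, and FDXR named below, do not. Of all genes 12.2% were higher and 10.3% lower. The folate enzyme MTHFD2 (log2 difference 0.36) and the mitochondrial NAD kinase NADK2 (0.31) rose, and the malic enzyme ME3 (-0.34) and the transketolase TKT (-0.31) fell. The list of selenoprotein synthesis, which GPX4 needs for its selenocysteine, had 4 of 13 genes higher and 1 lower. SEPSECS, which forms selenocysteine on its transfer RNA, averaged 7.94 ± 1.93 FPKM in OE and 5.13 ± 0.211 FPKM in Vector, and SECISBP2L rose by 0.25 on the log2 scale. The 1 lower gene was SELENBP1 (-0.43), which encodes a selenium-binding protein and is not a step of this synthesis. The list of coenzyme Q synthesis and other lipid radical traps had 2 of 24 higher, COQ5 (0.30) and COQ6 (0.27), and 3 lower. The larger falls were those of DHCR7 (-0.36), a cholesterol synthesis enzyme that consumes a lipid radical trap, and NMT2 (-0.25), an N-myristoyltransferase. Neither is a coenzyme Q enzyme or itself a trap. The remaining fall was that of COQ7 (-0.22). Around DHODH, 2 of 10 genes of pyrimidine synthesis and salvage were higher, the uridine phosphorylase gene UPP1 at 73.5 ± 0.469 FPKM in OE and 36.9 ± 3.39 FPKM in Vector, and UCKL1 (log2 difference 0.32).

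NRF2 control genes had 5 of 18 tested genes higher and 2 lower in OE, against 12.2% and 10.3% of all genes. The list holds genes that act for NRF2 and genes that act against it, so its counts give no direction for NRF2. Called higher beside the 2 genes described next were MAFG (log2 difference 0.21), BACH1 (0.22) and GSK3B (0.19), whose overlaps with other genes were not searched. SQSTM1, the autophagy receptor that binds KEAP1, averaged 492 ± 10.8 FPKM in OE and 371 ± 6.22 FPKM in Vector, and the small Maf gene MAFF 25.3 ± 1.95 FPKM in OE and 18.3 ± 1.04 FPKM in Vector (SD, n = 3 each). SQSTM1 was also above its control in the knockdown in 3 of 3 libraries, as was SRXN1 and as were 9.54% of all genes tested. Their log2 differences of 0.41 and 0.45 were not called (limma adjusted p = 0.265 and 0.212). In order of size, SQSTM1 was at 281, 283 and 425 FPKM in shGPD1L and SRXN1 at 38.6, 40.9 and 57.9 FPKM. The highest library thus carried much of each difference. RBX1, a subunit of the ligase that tags NRF2, and NFE2L3, a relative of NRF2, fell by 0.26 and 0.22 on the log2 scale in OE. Regulators of SLC7A11 or CHAC1 had 8 of 20 higher and 1 lower. ATF3, known as a repressor of SLC7A11, averaged 11.1 ± 0.687 FPKM in OE and 6.46 ± 1.01 FPKM in Vector (log2 difference 0.71, limma adjusted p = 0.00257). DDIT3, which acts with ATF4 in stress, averaged 101 ± 2.56 FPKM in OE and 67.7 ± 6.40 FPKM in Vector, and MYC fell by 0.38 on the log2 scale. Among these named genes COQ5, COQ6, DDIT3, GPX2, MAFF, MAT2A, MTHFD2, NFE2L3, NMT2 and SQSTM1, and MDM2 and SYVN1 named in the next paragraphs, overlap another listed gene on the other strand. SYVN1 also overlaps FAU on its own strand.

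In the knockdown, where 0.592% of all genes tested were called, 2 genes of the 10 lists were called, each the 1 call of its list. TRIT1, which modifies transfer RNAs including that of selenocysteine, averaged 12.0 ± 2.38 FPKM in shGPD1L and 5.76 ± 0.455 FPKM in shNC (log2 difference 0.93, limma adjusted p = 0.0374). ATF3 averaged 6.99 ± 1.50 FPKM in shGPD1L and 12.8 ± 0.541 FPKM in shNC (log2 difference -0.81, limma adjusted p = 0.048). Neither call was firm: of 15 alternatives, 6 left the list of TRIT1 and 12 that of ATF3 with 0 calls. Without shGPD1L replicate 3, where 1.8% of all genes were called higher and 3.21% lower, the calls were 3 of 19 lower in glutathione turnover, 1 of 16 lower in cysteine supply and 1 of 18 higher in NRF2 control. NADPH supply (17 tested), selenoprotein synthesis (13 tested) and the regulators (21 tested) then had 1 higher and 1 lower each, and the other 4 lists 0.

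**Figure D4:**
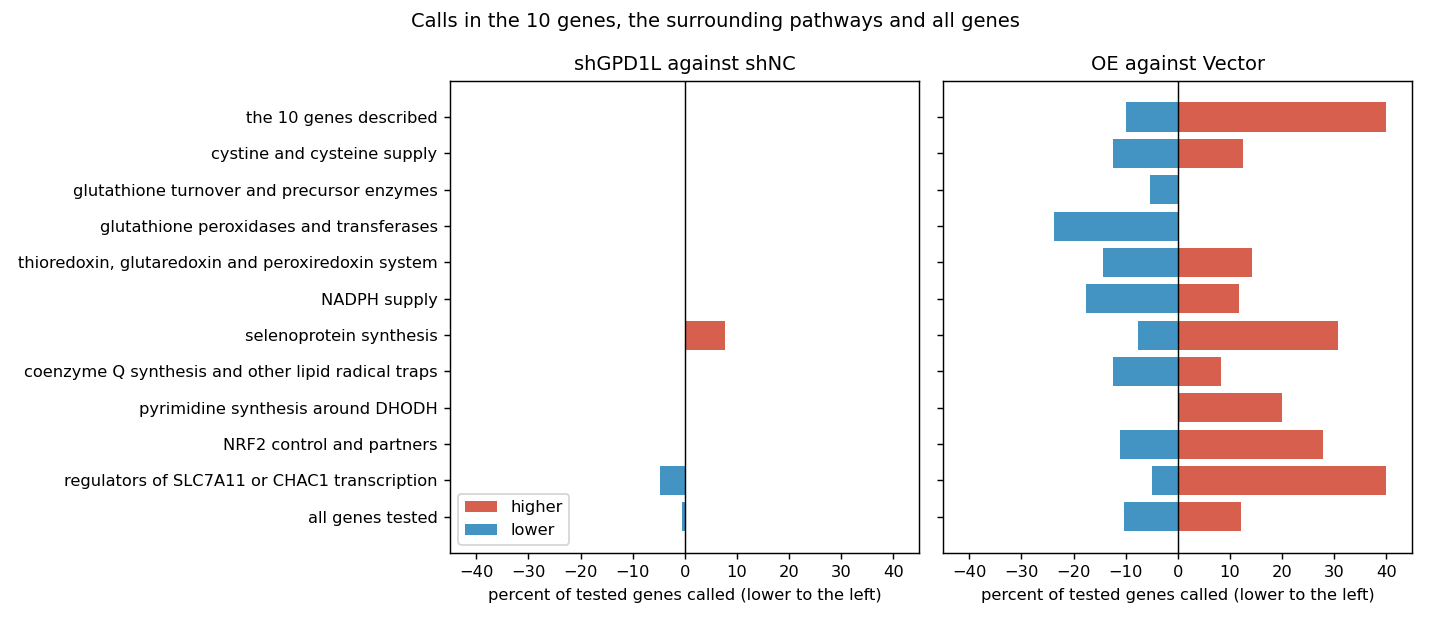
Percent of the tested genes of each list called higher (right of 0) or lower (left of 0) at a limma adjusted p under 0.05, in shGPD1L against shNC and in OE against Vector, with all genes tested as the bottom bar. In the overexpression the 10 genes have 4 calls to the right and 1 to the left, and the peroxidases and transferases have 5 calls, all to the left.

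In the difference of the effects, where 14.1% of all genes were called, the counts ran from 0 of 21 in the thioredoxin list and 1 of 18 in NRF2 control to 7 of 20 in the regulators. They moved with the setting, between 0 and 4 calls for the thioredoxin list and between 1 and 7 of 17 for NADPH supply, which had 4. The rule of at most 2 genes per direction and list named ATF3 (1.52 log2 units), UPP1 (1.23), SEPSECS (0.99), MDM2 (0.97), COQ6 (0.64), OPLAH, the oxoprolinase of glutathione turnover (0.57), MTHFD2 (0.51), FDXR (0.50), SLC38A2 (0.47), GSTM3 (0.43), MTR (0.42) and COQ5 (0.36) toward higher values. GPX2 (-1.56), DPEP1 (-0.80), TKT (-0.78), DHCR7 (-0.50), GSTP1 (-0.49), SYVN1 (-0.45), STAT3 (-0.43), LRP8 (-0.37), SEPHS1 (-0.33), COQ8A (-0.30) and IDH2 (-0.30) had differences below 0. All 23 of these were also called without shGPD1L replicate 3, a fit added for them after the data were seen. That fit called more genes in all, 2572 against 1584, so keeping these calls there was likely beforehand. Settings that called fewer genes were not examined for these 23. GPX2 was listed at 15.8, 12.8 and 47.4 FPKM in shGPD1L, and without replicate 3 its difference was -1.01 (limma adjusted p = 0.000493). DPEP1 was below its control in both comparisons, with log2 differences of -1.42 in OE and -0.63 in shGPD1L, the latter not called.

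Over the 12 libraries the genes whose log2(FPKM + 1), relative to the control mean, lay closest to SLC7A11 among 11206 others were RIOK3, PTAR1 and RICTOR. Their root mean square differences from it were 0.0624, 0.0714 and 0.0784 log2 units, and SLC7A11 itself had a root mean square of 0.265. Closest to CHAC1 were DIS3L, CENPBD1 and NVL, at 0.0709, 0.0812 and 0.083 log2 units against 0.231 for CHAC1 itself.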

How the data were processed

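Poly(A) RNA sequencing of 12 SW480 libraries, grouped by their titles, was deposited as 2 tables of FPKM, 1 for each comparison, per the file headers. The submitters' processing notes name HISAT2, StringTie, DESeq2 and GRCh38, with no versions or roles; no source used here gives the annotation release or a filter. The deposited FPKM values were not whole multiples of a read (11.9% and 12.9% of low genes at whole-number ratios, against 8.45% and 8.53% over all depth ratios tried), so depth is unknown, no counting interval is given and no count test was run. Identifiers were matched to GENCODE 29, where all 12388 and 12411 annotated ones were found, and 21 symbols turned into dates were restored. In the genotype labels the digit in the gene name counts up with the replicate; the titles were followed.

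Values were tested as log2(FPKM + 1) with limma 3.58.1 (R 4.3.3, intensity trend) within each table, and over 12 libraries with 4 group means for the difference of effects, with the Benjamini-Hochberg adjustment over all genes tested. The test was checked on simulated data. The members and lists were chosen with earlier results of these data known. Genes named beside the 10 are GPD1L, ATF3, SLC3A2, KEAP1 and the 3 nearest in pattern to SLC7A11 and CHAC1. Up to 2 called higher and 2 lower per list and comparison with the largest change (groups not overlapping within a table) are also named. COQ7, MAFG, BACH1 and GSK3B were added to complete the calls of their lists. AP-1 was added after the matches were seen. Alternatives were a pseudocount of 0.1 or 0.5, a filter at 5 FPKM or none, equal totals, median-of-ratios scaling, quantile normalization, no trend, a replicate block and leaving out each library.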

Additional observations from a re-analysis of the deposited data

How the results depend on the processing

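The count of 0 of 10 genes called in the knockdown held in all 15 alternatives, and that in the overexpression was 4 or 5, also without any 1 library. In the difference of effects 2 of the 10 were called with equal library totals and 2 with median-of-ratios scaling, and 0 to 6 without any 1 library. Over all genes tested, 25 were called in the knockdown with quantile normalization, against 72, and 0 to 609 without any 1 library (the counts of 0, without shNC replicate 2 or 3, came with 1408 and 1126 genes at an unadjusted p under 0.05 in limma); in the overexpression 1550 to 1980, against 2740, and in the difference 790 to 2572, against 1584, without any 1 library. The cause of these changes was not tested, beyond the fewer samples of a fit without a library. The replicate numbers paired no samples (correlation of same-numbered deviations -0.18 to 0.0222). With the replicate block 3 genes were called in the knockdown, 2021 in the overexpression and 483 in the difference; of the 10 genes 0, 4 and 1 were called, and the call lost was DHODH (adjusted p = 0.0697). With quantile normalization the knockdown split was 8 higher to 17 lower, against 14 to 58. The median log2 change over all genes stayed between -0.047 and 0.0841 in every setting. No value that turned its sign was called. It turned for GCLC (0.0271) and GSS (0.00102) in the knockdown and GSR in the difference (-0.0492) with median-of-ratios scaling, and for GPX4 in the overexpression with quantile normalization (0.0418). Over the fits without 1 library the knockdown values crossed 0 for GCLC (-0.176 to 0.0681), GCLM (-0.00615 to 0.224), GSR (-0.144 to 0.241) and DHODH (-0.0216 to 0.0735), and the differences for AIFM2 (-0.092 to 0.0106) and GSR (-0.131 to 0.254). The filter at 5 FPKM left out DHODH. With depth unknown, how far it limits the low values cannot be given.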
